A study of Eublepharis macularius with 8 samples.

Results

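Wnt proteins are secreted, lipid-modified ligands, and Frizzled proteins are the 7-transmembrane receptors that bind them. They were measured here as 35 rows of the deposited gene counts, chosen by symbol: 18 Wnt genes, 10 Frizzled genes, the co-receptor genes LRP5 and LRP6, the receptor genes ROR1, ROR2 and RYK, and PORCN and WLS, which serve ligand export. The whole table holds 22488 rows. The animals were adults of the leopard gecko, Eublepharis macularius, in which teeth are shed and replaced throughout life, and functional teeth (in use) were set against developing teeth (still forming). No genotype or treatment is given in the labels. Each group had 4 libraries, each of several teeth. Replicates 1 to 3 of both groups came from females, with 3 teeth in a sample. Replicate 4 came from males, with 10 teeth in the functional and 11 in the developing sample. Sex, the number of teeth pooled and any difference in collection thus cannot be told apart, and terms named for sex below stand for all of these together. The sample titles number them as Biolrep and do not say how many animals stand behind each, so the p-values cover only the spread among these libraries, which may be technical in part. RNA integrity numbers were 9.1 to 9.6 in functional and 8.8 to 9.6 in developing libraries.

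In the canonical branch, a Wnt bound to a Frizzled and to LRP5 or LRP6 protects beta-catenin from breakdown, and beta-catenin then acts with TCF and LEF factors on target genes. Other branches run through Frizzled with ROR1, ROR2 or RYK and act on cell polarity and movement. In the mouse, Wnt ligands of the oral and dental epithelium are needed for teeth to form, and in humans loss-of-function variants of WNT10A are a common inherited cause of missing teeth.

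Libraries held between 14144573 and 30935120 estimated counts. The type I collagen genes took 28.9% to 32.9% of counts in functional libraries and 20.4%, 18.4%, 5.65% and 4.31% in developing replicates 1 to 4. Summed over 6 ameloblast markers, the level was 1239, 121, 139 and 55.2 CPM (counts scaled to a common library total, after TMM scaling) in functional replicates 1 to 4. In developing libraries it was between 5208 and 33411 CPM. The file held 7 markers of dental and oral epithelium. They summed to 896 to 1618 CPM in functional and 689 to 1677 CPM in developing libraries. Of the 7, 0 passed edgeR's test, also at an unadjusted p under 0.05. For all genes, the share called higher in functional teeth was 0.8% with adjustment of p and 9.53% without it. The share called lower was 2.01% and 12.8%. Beside these shares, 7 genes are too few for a count of 0 to show equal epithelium in both groups. In such bulk samples, fewer cells of a type and less RNA per cell cannot be told apart.

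Of the 35 genes, 28 passed the filter on low counts, which must be met in at least 4 libraries, and were tested. WNT3A, WNT3, FZD3 and FZD10 met it in every developing but not in every functional library. Their place among the 28 thus depended on the group where they were higher. FZD4 rose in functional teeth, and WNT7A, FZD1 and FZD10 fell (quasi-likelihood test of edgeR with p adjusted by Benjamini and Hochberg's method over 15491 genes, threshold 0.05). That is 1 of 28 higher, where 0.8% of all genes tested were higher, and 3 of 28 lower, where 2.01% were. With the replicate number as a block, FZD1 and FZD10 no longer passed (adjusted p = 0.073 and 0.0767), which left 1 of 28 higher and 1 of 28 lower, beside 0.445% and 0.975% of all genes. Without adjustment, 3 were higher and 10 lower at p under 0.05, beside 9.53% and 12.8% of all genes. The values of both groups lay fully apart in 7 of the 28 genes (25%) and in 15% of all genes. The median log2 fold change, functional minus developing, was -0.28 over the 28 genes and 0.00127 over all genes. DESeq2's Wald test called 2 higher, adding WNT5B, and 7 lower, adding WNT3A, FZD3, ROR1 and ROR2, beside 4.74% and 6.3% of all genes. Without functional replicate 4, 0 of the 28 passed in either direction in edgeR's test, at adjusted p-values of 0.0611 for FZD4, 0.0641 for WNT7A, 0.104 for FZD1 and 0.12 for FZD10, with 8 genes called among all 15731 tested.

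**Figure D1:**
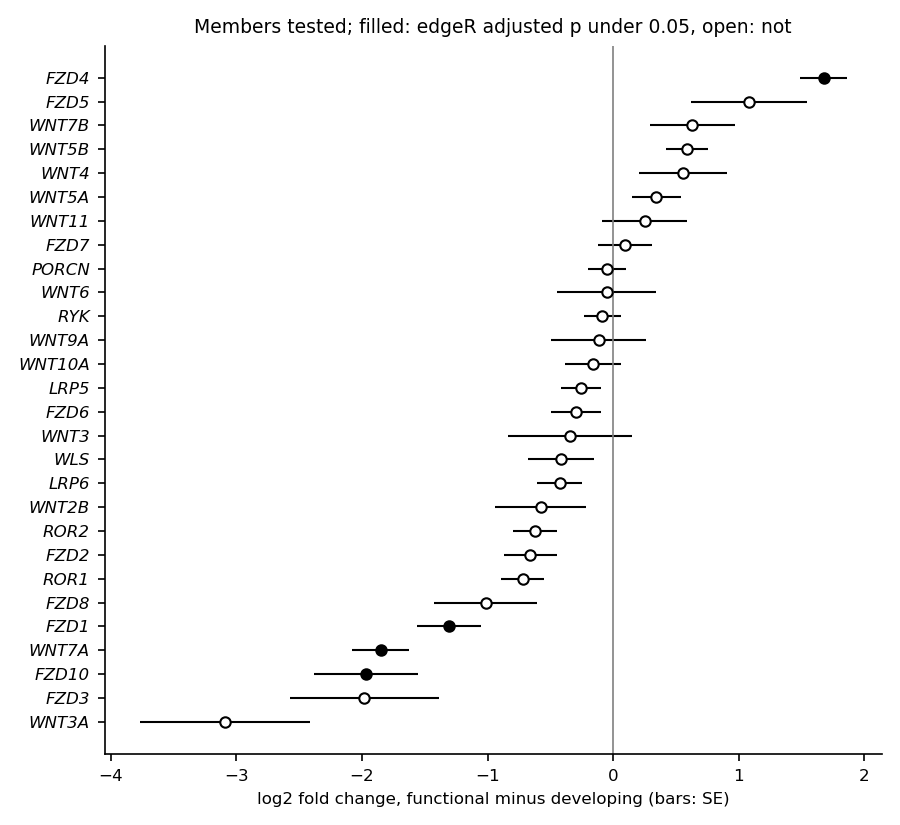
Log2 fold change (functional minus developing teeth, x axis) of each of the 28 tested genes, with bars of 1 standard error from the edgeR fit. FZD4 lies farthest to the right at 1.67 and WNT3A farthest to the left at -3.09, with filled points for FZD4, FZD1, WNT7A and FZD10 (adjusted p under 0.05).

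Among the ligands, 12 of 18 were tested, 0 rose and 1 fell in edgeR's test, beside 0.8% and 2.01% of all genes. At an unadjusted p under 0.05, 1 was higher (WNT5B) and 2 were lower (WNT7A and WNT3A), beside 9.53% and 12.8% of all genes. DESeq2 called these genes as well, where it called 4.74% of all genes higher and 6.3% lower. WNT7A, which in the mouse is known from limb patterning and the female reproductive tract, held 5.70, 5.48, 4.24 and 4.30 CPM in functional replicates 1 to 4. In developing replicates 1 to 4 it held 12.3, 20.6, 22.6 and 15.7 CPM. The lowest developing library thus lay above the highest functional one, and WNT7A fell by 1.85 ± 0.23 (SE) on the log2 scale, or 3.61-fold (adjusted p = 0.0186). The call was kept with the block (adjusted p = 0.0452). It was lost without functional replicate 2, 3 or 4 or developing replicate 3, at adjusted p-values between 0.0502 and 0.0749 and log2 fold changes between -1.90 and -1.70.

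WNT3A, a ligand of the canonical branch, had the largest difference of the 28 genes and did not pass. Its functional counts alone would not have met the filter on low counts. It had 18, 6, 8 and 19 counts in functional replicates 1 to 4, or 1.02, 0.243, 0.413 and 0.826 CPM. In developing replicates 1 to 4 the counts were 32, 93, 108 and 261, or 1.31, 4.28, 5.595 and 10.04 CPM. The groups did not overlap, but developing replicate 1 lay close to functional replicate 1. The log2 fold change was -3.09 ± 0.68 (adjusted p = 0.0541), and the adjusted p was 0.0349 without developing replicate 1, 0.0392 with sex as a covariate, and 0.0871 with the replicate block.

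WNT5B, a ligand of the non-canonical branch, was the only tested ligand with every functional library above every developing one. It held 38.5, 48.2, 37.6 and 51.9 CPM in functional replicates 1 to 4 and 26.3, 37.1, 25.2 and 28.9 CPM in developing replicates 1 to 4. The gap between the groups was narrow, since functional replicate 3 at 37.6 CPM stood beside developing replicate 2 at 37.1 CPM. The log2 fold change was 0.59 ± 0.17 and did not pass (adjusted p = 0.0962), and it was -0.00118 on total counts without TMM, a scaling that shifts the median of all genes by -0.59.

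Of the other ligands, WNT5A, WNT4, WNT10A and WNT6 had the highest counts and did not pass. WNT5A, which in the mouse is expressed in dental mesenchyme and signals through ROR2, averaged 148 ± 32.9 CPM (SD, n = 4) in functional against 116 ± 15.2 CPM in developing libraries (log2 fold change 0.34 ± 0.20, adjusted p = 0.337). WNT4 averaged 42.5 ± 17.2 and 28.9 ± 12.4 CPM (adjusted p = 0.386). It reached 65.6 CPM in functional replicate 1 and 47.6 CPM in developing replicate 3, while developing replicates 1, 2 and 4 lay between 21.6 and 23.6 CPM. Both log2 fold changes turn negative on total counts without TMM. WNT10A, the ligand tied to missing teeth in humans, averaged 40.0 ± 3.86 CPM in functional against 44.7 ± 14.2 CPM in developing libraries (log2 fold change -0.16 ± 0.22, adjusted p = 0.702). WNT6, which in the mouse is made by surface and oral ectoderm, averaged 48.7 ± 24.8 and 50.5 ± 14.96 CPM (adjusted p = 0.951), and ranged from 20.4 CPM in functional replicate 1 to 78.7 CPM in functional replicate 3.

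WNT7B, the close paralog of WNT7A and in the mouse a ligand of oral epithelium outside the tooth germ, averaged 12.1 ± 3.22 CPM in functional against 7.84 ± 3.70 CPM in developing libraries (log2 fold change 0.63 ± 0.34, adjusted p = 0.31). Its estimated count was not whole within 0.02 counts in any of the 8 libraries, as happens where reads are divided between transcripts, so its split from others is uncertain. The same was true of ROR2, and of FZD6 in 7 libraries. WNT7A and ROR1 were whole in all 8 libraries, and the sums of WNT7A with WNT7B and of ROR1 with ROR2 were whole in 0 of the 8. Which genes shared these reads was not tested. WNT11, another non-canonical ligand, averaged 4.59 ± 1.58 and 3.86 ± 1.11 CPM (adjusted p = 0.694), and WNT9A averaged 4.19 ± 1.33 and 4.53 ± 1.99 CPM (adjusted p = 0.878). WNT2B (1.06 ± 0.0887 and 1.59 ± 0.779 CPM, adjusted p = 0.382) and WNT3 (0.643 ± 0.268 and 0.816 ± 0.469 CPM, adjusted p = 0.718) were low in both groups.

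**Figure D2:**
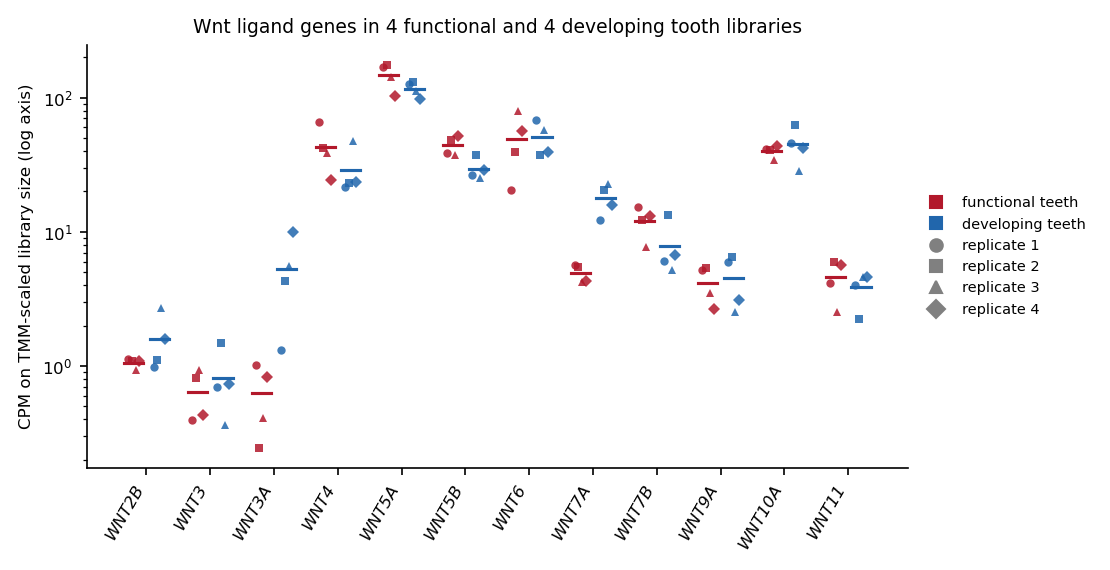
CPM of the 12 tested Wnt ligand genes (log axis) in each library, red for functional and blue for developing teeth, with a symbol for each replicate number and a line at the group mean of 4 libraries. WNT7A and WNT3A are lower and WNT5B higher in every functional library than in any developing library, and the points of the other 9 ligands overlap between groups.

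Of the 18 ligands, 6 were too low to test. WNT8B had no count in any library, where 3 counts, the limit that a count of 0 allows, correspond to 0.115 to 0.169 CPM per library, for counting error only. WNT8A had 2 counts, both in functional replicate 4. WNT10B had 2 counts over the functional and 11 over the developing libraries, 9 of them in developing replicate 4. WNT9B, which in the mouse acts in facial outgrowth, had 4 and 26 counts, 17 of them in developing replicate 4. WNT1 had 8 and 11, and WNT16 had 15 and 15. Where the filter was left out, 0 of the 5 ligands with a count had an unadjusted p under 0.05 in edgeR's test. The smallest adjusted p was that of WNT9B (0.347). In that fit 1.71% of all 20223 genes had an adjusted p under 0.05, and their share at the unadjusted p was not computed. The counts of these ligands were too few for this to show a lack of difference.

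By gene order in RefSeq's annotation of assembly MPM_Emac_v1.0, 8 of the ligand genes lie in 4 pairs with no other protein-coding gene between them. They are WNT1 beside WNT10B, WNT9B beside WNT3, WNT3A beside WNT9A, and WNT6 beside WNT10A. The WNT3A to WNT9A count ratio was 0.196, 0.0451, 0.118 and 0.311 in functional replicates 1 to 4 and 0.219, 0.660, 2.20 and 3.22 in developing replicates 1 to 4. The groups overlapped in this ratio, with developing replicate 1 among the functional values. The WNT10A to WNT6 ratio ran from 0.438 to 2.03 in functional and from 0.492 to 1.69 in developing libraries, with the groups overlapping nearly throughout.

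Among the Frizzled receptors, 9 of 10 were tested, 1 rose and 2 fell, where 0.8% of all genes rose and 2.01% fell. FZD4, which besides Wnts binds norrin and is known in the mouse from retinal vessels, held 40.4, 31.1, 26.2 and 40.5 CPM in functional replicates 1 to 4. In developing replicates 1 to 4 it held 11.6, 12.7, 8.70 and 10.3 CPM. Every functional library held over double the level of any developing library, and FZD4 rose by 1.67 ± 0.18 on the log2 scale, or 3.19-fold (adjusted p = 0.0128). It passed in 17 of the 19 alternative fits. The exceptions were the female libraries alone (log2 fold change 1.57, adjusted p = 0.0969) and the fit without functional replicate 4 (1.59, adjusted p = 0.0611). On total counts, where the median of all genes moves to -0.59, its log2 fold change was still 1.10.

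Endothelial markers were read beside FZD4. All 8 had a positive log2 fold change, with a median of 0.83 and a largest value of 1.12 for VWF. In edgeR's test 0 of the 8 passed and 6 had an unadjusted p under 0.05, where 9.53% of all genes were higher at that p. Their summed level was between 83.9 and 132 CPM in functional and between 38.3 and 87.7 CPM in developing libraries, overlapping through functional and developing replicate 1, and none of the 8 was at 0 in all libraries. A positive median was not particular to endothelium. It was larger for markers of odontoclasts (2.05), macrophages (1.64), odontoblasts and mineralizing mesenchyme (1.43), and pericytes and smooth muscle (1.01). It was 0.14 for dental mesenchyme and fibroblasts. For markers of epithelium, ameloblasts, Schwann cells, skeletal muscle and proliferating cells it was negative. The part of any of these cells in the rise of FZD4 was not tested.

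FZD1, a receptor of the canonical branch, held 47.9, 38.5, 33.4 and 38.2 CPM in functional replicates 1 to 4. It held 77.5, 62.5, 125 and 126 CPM in developing replicates 1 to 4, all above the functional libraries. The higher values stood in developing replicates 3 and 4, the developing libraries with the lower share of type I collagen, and the part of that share was not tested. FZD1 fell by 1.31 ± 0.26, or 2.47-fold (adjusted p = 0.0417; with the block 0.073). Leaving out a library gave adjusted p-values between 0.0281 and 0.127, and FZD1 passed only without developing replicate 1 or 2.

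FZD10 was low and fell, and its functional counts alone would not have passed the filter on low counts. It had 9, 10, 14 and 8 counts in functional replicates 1 to 4, or 0.508, 0.406, 0.723 and 0.348 CPM, and 72, 50, 24 and 33 counts in developing replicates 1 to 4, or 2.95, 2.30, 1.24 and 1.27 CPM. The groups did not overlap, and developing replicates 1 and 2 were the higher ones, the reverse of FZD1. FZD10 fell by 1.97 ± 0.41 (adjusted p = 0.0478; with the block 0.0767). It passed in none of the 8 fits that left out a library, where the adjusted p was between 0.0672 and 0.136 and the log2 fold change between -2.20 and -1.67.

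FZD2, the near relative of FZD1, averaged 36.8 ± 4.80 CPM in functional against 58.0 ± 15.2 CPM in developing libraries and missed the threshold (log2 fold change -0.66 ± 0.21, adjusted p = 0.128), though its adjusted p was 0.0388 without developing replicate 2. FZD7, the third gene of that subfamily, averaged 83.5 ± 13.5 and 78.1 ± 19.5 CPM (log2 fold change 0.10 ± 0.21, adjusted p = 0.816), with a log2 fold change of -0.0188 without developing replicate 1 and -0.52 on total counts. The split of reads among these 3 genes is uncertain. At least 1 of them was not whole in 6 libraries, and in all 6 their sum was whole within 0.02 counts. In functional replicate 3 and developing replicate 4, where all 3 values were whole, FZD1 stood at 33.4 and 126 CPM. These were its lowest functional and its highest developing value, and a whole value does not show that no reads were shared. The 3 genes summed had 182, 154, 133 and 169 CPM in functional and 201, 170, 283 and 280 CPM in developing replicates 1 to 4, and the sum missed the threshold (log2 fold change -0.55 ± 0.20, adjusted p = 0.164).

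FZD5 and FZD8, also close paralogs, had differences of opposite sign. FZD5 averaged 19.1 ± 5.16 CPM in functional against 8.997 ± 5.88 CPM in developing libraries (log2 fold change 1.08 ± 0.46, adjusted p = 0.214), with 11.4, 16.2, 4.197 and 4.19 CPM in developing replicates 1 to 4. FZD8 averaged 12.2 ± 2.40 and 24.6 ± 15.004 CPM (log2 fold change -1.01 ± 0.41, adjusted p = 0.195), with 10.3, 17.8, 25.0 and 45.2 CPM in the same order. Both were spread widely among developing libraries, FZD5 highest in replicate 2 and FZD8 in replicate 4. Their values were not whole in 4 libraries, where the sum of both was whole. Summed, the pair had a log2 fold change near 0, at -0.10 ± 0.24 (adjusted p = 0.824).

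FZD3 and FZD6 are the Frizzled genes most tied to planar cell polarity in the mouse. FZD6 averaged 87.7 ± 22.5 CPM in functional against 108 ± 14.1 CPM in developing libraries (log2 fold change -0.29 ± 0.20, adjusted p = 0.422), with estimated counts that were not whole in 7 of 8 libraries. FZD3 had only 6 to 10 counts in functional and 10 to 84 counts in developing libraries, or 0.402 ± 0.13 and 1.59 ± 1.18 CPM (log2 fold change -1.98 ± 0.59, adjusted p = 0.109), with the highest value in developing replicate 4 and the groups overlapping through developing replicate 2, without which its adjusted p was 0.0481. FZD9 was too low to test, with 23 counts over the functional and 42 over the developing libraries.

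**Figure D3:**
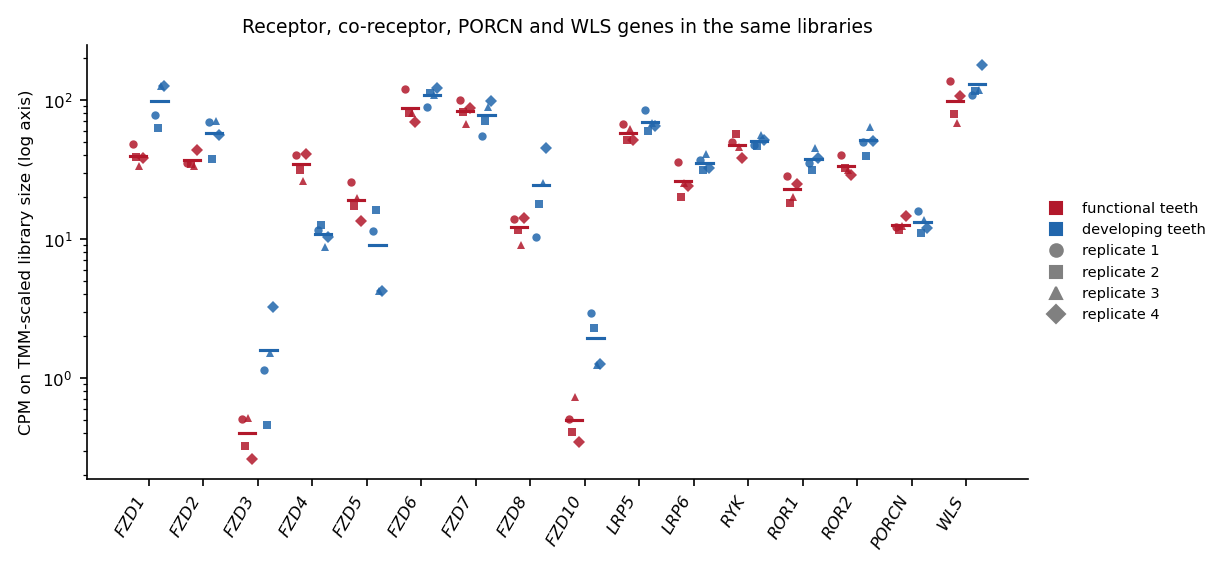
CPM (log axis) of the 16 tested genes of Frizzled receptors, co-receptors, PORCN and WLS in each library, red for functional and blue for developing teeth, with a symbol for each replicate number and a line at the group mean of 4 libraries. FZD4 lies higher, and FZD1, FZD10 and ROR1 lie lower, in every functional library than in any developing library.

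Of the 5 genes of co-receptors and of ROR and RYK receptors, 0 passed edgeR's test, where 0.8% of all genes rose and 2.01% fell. At an unadjusted p under 0.05, 3 (LRP6, ROR1 and ROR2) were lower, beside 12.8% of all genes. DESeq2 called ROR1 and ROR2 lower, beside 6.3% of all genes. All 5 log2 fold changes were negative, that of RYK only barely, beside 7716 of all 15491 genes. ROR1, a receptor tyrosine kinase-like protein of the non-canonical branch, held 28.2, 17.97, 20.04 and 24.6 CPM in functional and 35.2, 31.2, 45.2 and 37.9 CPM in developing replicates 1 to 4. Its groups did not overlap (log2 fold change -0.72 ± 0.17, adjusted p = 0.064). ROR2, which binds WNT5A, held 40.2, 32.1, 31.5 and 28.9 CPM in functional and 50.04, 39.1, 64.0 and 50.9 CPM in developing replicates 1 to 4, where only functional replicate 1 and developing replicate 2 overlapped. Its log2 fold change was -0.62 ± 0.17 (adjusted p = 0.0941).

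LRP5 averaged 58.1 ± 7.83 CPM in functional against 69.5 ± 10.6 CPM in developing libraries (log2 fold change -0.26 ± 0.16, adjusted p = 0.374). LRP6 averaged 26.3 ± 6.67 and 35.3 ± 4.40 CPM (-0.43 ± 0.18, adjusted p = 0.212). RYK, which binds Wnts through a domain like that of a secreted Wnt inhibitor, averaged 47.5 ± 7.74 and 50.4 ± 4.42 CPM (-0.09 ± 0.15, adjusted p = 0.763), and its sign turned without functional replicate 4 (0.0113).

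Neither export gene passed. PORCN, the enzyme that attaches the lipid to Wnts, lay between 11.6 and 14.7 CPM in functional and between 11.0 and 15.9 CPM in developing libraries (log2 fold change -0.05 ± 0.15, adjusted p = 0.873). WLS, the carrier that takes lipid-bearing Wnts to the cell surface, averaged 97.5 ± 30.8 and 130 ± 31.7 CPM (-0.42 ± 0.26, adjusted p = 0.379), and developing replicate 4 stood apart at 177 CPM.

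Count ratios of a pair of genes within 1 library do not depend on the scaling of libraries, and transcript length cancels when the same ratio is compared between libraries. The pairs were chosen after the values were seen, so they are given without a test. The FZD4 to FZD1 ratio was 0.844, 0.807, 0.785 and 1.06 in functional and 0.149, 0.203, 0.0698 and 0.0817 in developing replicates 1 to 4. The lowest functional ratio was well above the highest developing one. That separation follows from the CPM above, where FZD4 lay higher and FZD1 lower in every functional library. The ratio also depends on the uncertain split of reads among FZD1, FZD2 and FZD7. The WNT7A to WNT7B ratio was 0.371, 0.445, 0.550 and 0.326 in functional and 2.01, 1.55, 4.36 and 2.33 in developing replicates 1 to 4. Every functional ratio thus lay below every developing one. Whether the ratio lay under or over 1 has no meaning, since transcript lengths were not used. WNT7A by itself separated the groups, while WNT7B overlapped between them and has an uncertain split of reads. The ROR1 to RYK ratio was at most 0.651 in functional and at least 0.670 in developing libraries, a narrow gap. Of other pairs looked at, FZD8 to FZD5 (0.455 to 1.05 in functional, 0.905 to 10.8 in developing libraries) and LRP5 to LRP6 (1.88 to 2.57, 1.69 to 2.28) overlapped. WNT4 to WNT3A did not (29.3 to 172, 2.35 to 16.5). The split of reads between FZD5 and FZD8 is uncertain as well.

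**Figure D4:**
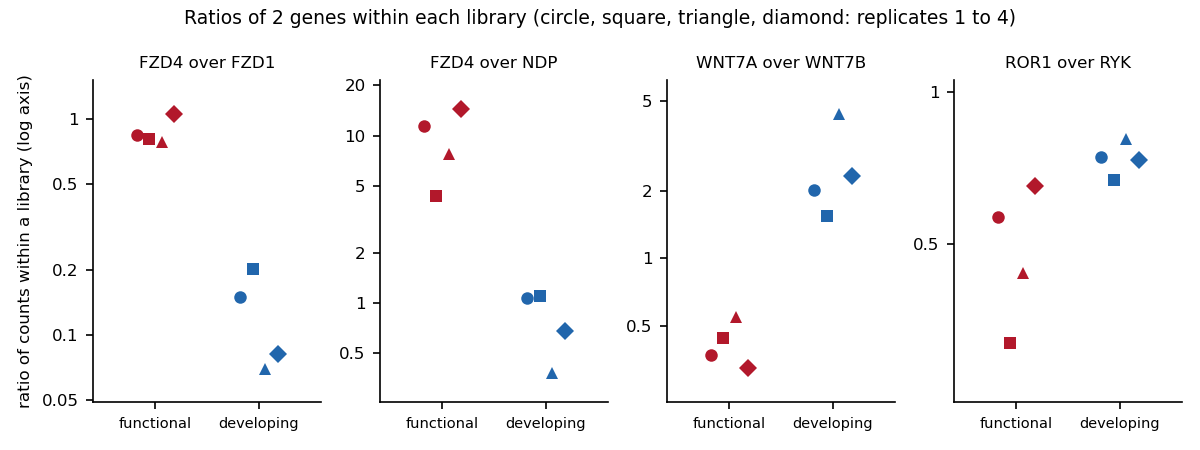
Ratios of estimated counts of 2 genes within each library (log axes), for 4 functional (red) and 4 developing (blue) libraries, with a symbol for each replicate number. FZD4 over FZD1 and FZD4 over NDP are higher, and WNT7A over WNT7B and ROR1 over RYK lower, in every functional library, the last by the smallest margin (0.651 against 0.670). The separations of both FZD4 ratios follow from the CPM of their genes, which lie apart in opposite directions. FZD1 and WNT7B have an uncertain split of reads.

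The male libraries could be compared with the female ones only as 1 library in each tissue. In a model with tissue, the term for male minus female libraries passed for 0 of the 28 genes, beside 4.68% of all genes. At an unadjusted p under 0.05 it gave WNT5A (log2 fold change -0.49 ± 0.16, edgeR adjusted p = 0.136) and FZD8 (0.88 ± 0.35, edgeR adjusted p = 0.206). The interaction of tissue and sex passed for 0 of the 28 and 0% of all genes in edgeR's test, with 0 of the 28 at an unadjusted p under 0.05. With the male pair left out, the log2 fold changes over 6 libraries were 1.57 for FZD4, -1.85 for WNT7A, -1.14 for FZD1 and -1.99 for FZD10, with adjusted p-values of 0.0969, 0.0969, 0.152 and 0.14.

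Other genes of the pathway were read from 7 lists, in which 0 genes rose and 7 fell in edgeR's test. Of those that fell, SP5, RSPO4 and SOST met the filter on low counts in every developing but not in every functional library. Their place among the tested genes thus depended on the group where they were higher. The same held for GPC3, which did not pass. Among all genes tested, 0.8% rose and 2.01% fell, the shares to set beside each list below. With the replicate block only APCDD1 kept its call (adjusted p = 0.0462), where 0.445% of all genes rose and 0.975% fell. FZD4's other ligand moved against it. NDP, which encodes norrin, a secreted protein outside the Wnt family that binds FZD4 together with LRP5, held 3.56, 7.14, 3.36 and 2.82 CPM in functional and 10.8, 11.6, 22.8 and 15.2 CPM in developing replicates 1 to 4. The groups did not overlap, and NDP fell by 1.83 ± 0.37 (adjusted p = 0.0426; with the block 0.0704). Leaving out a library gave adjusted p-values between 0.0455 and 0.13, under 0.05 only without developing replicate 2. The FZD4 to NDP count ratio ran from 4.35 to 14.3 in functional libraries and from 0.382 to 1.10 in developing ones. This separation follows from the CPM of both genes, which lay apart in opposite directions. TSPAN12, the norrin co-activator at FZD4, did not pass (0.10 ± 0.16, adjusted p = 0.743), nor did ADGRA2, which in the mouse brain makes vessels responsive to WNT7A and WNT7B (-0.45 ± 0.23, adjusted p = 0.285).

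Of 24 tested genes of signal transduction inside the cell, 0 rose and 2 fell, with a median log2 fold change of -0.01. CCDC88C, whose protein Daple binds Dishevelled, held 2.88, 1.30, 1.65 and 2.04 CPM in functional and 5.78, 10.4, 17.5 and 22.3 CPM in developing replicates 1 to 4, with no overlap. It fell by 2.83 ± 0.46 (adjusted p = 0.0293; with the block 0.059). When a library was left out its adjusted p was between 0.0216 and 0.105, and it passed only without functional replicate 1 or developing replicate 1 or 2. TCF7, one of the TCF and LEF factors and a feedback target, held 12.6, 9.73, 9.76 and 11.6 CPM in functional and 18.1, 16.1, 21.9 and 24.1 CPM in developing replicates 1 to 4. It fell by 0.87 ± 0.17 (adjusted p = 0.0403; with the block 0.0591), and passed only without developing replicate 2 when a library was left out (adjusted p 0.0311 to 0.124). CTNNB1, which encodes beta-catenin, was lower in every functional library (899 ± 69.5 and 1123 ± 107 CPM) and did not pass (-0.32 ± 0.13, adjusted p = 0.203).

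Among 13 tested feedback and target genes, which share TCF7 and LEF1 with that list, 0 rose and 2 fell (median -0.22). The second was SP5, a transcription factor induced by beta-catenin, with 0.452, 0.365, 0.207 and 0 CPM in functional and 1.27, 5.39, 19.0 and 25.6 CPM in developing replicates 1 to 4 (adjusted p = 0.0426; with the block 0.0895). AXIN2, the most used readout of the canonical branch, had a log2 fold change near 0, at 0.09 ± 0.33 (adjusted p = 0.886). Of 9 R-spondin, LGR and ligase genes, 0 rose and 1 fell (median -0.03). RSPO4, an enhancer of Wnt receptor levels, was the one that fell (-4.56 ± 0.88, adjusted p = 0.0403, with the block 0.0555). It held 0.677, 0.324, 0.620 and 0.478 CPM in functional and 3.77, 1.80, 20.9 and 23.0 CPM in developing replicates 1 to 4. RSPO3 had the largest positive value (1.21 ± 0.32, adjusted p = 0.083).

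Of 15 tested antagonists, 0 rose and 2 fell, and their median log2 fold change of -0.83 was the lowest of the 7 lists. They were APCDD1 (-0.83 ± 0.13, adjusted p = 0.0276) and SOST (-3.71 ± 0.74, adjusted p = 0.0426; with the block 0.093). FRZB, a secreted Frizzled-related protein that binds Wnts, had the largest positive value among them (1.10 ± 0.24, adjusted p = 0.0549). When a library was left out, SP5, RSPO4, SOST and APCDD1 passed only without developing replicate 1 or 2, with adjusted p-values of up to 0.133, 0.125, 0.129 and 0.092. In the lists of Wnt secretion and transport (10 tested, median 0.08) and of planar cell polarity (18 tested, median -0.01), 0 genes passed. At an unadjusted p under 0.05 in edgeR's test, 9.53% of all genes were higher and 12.8% lower. There were 1 higher and 2 lower in the first list and 1 higher and 3 lower in the second. TMED10 (0.62 ± 0.18, adjusted p = 0.1) and GPC3 (-2.51 ± 0.67, adjusted p = 0.0833) had the smallest p-values of the first, and DAAM2, a formin of the polarity branch (1.31 ± 0.29, adjusted p = 0.0544), and MAPK8 (-0.36 ± 0.08, adjusted p = 0.0605) those of the second.

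**Figure D5:**
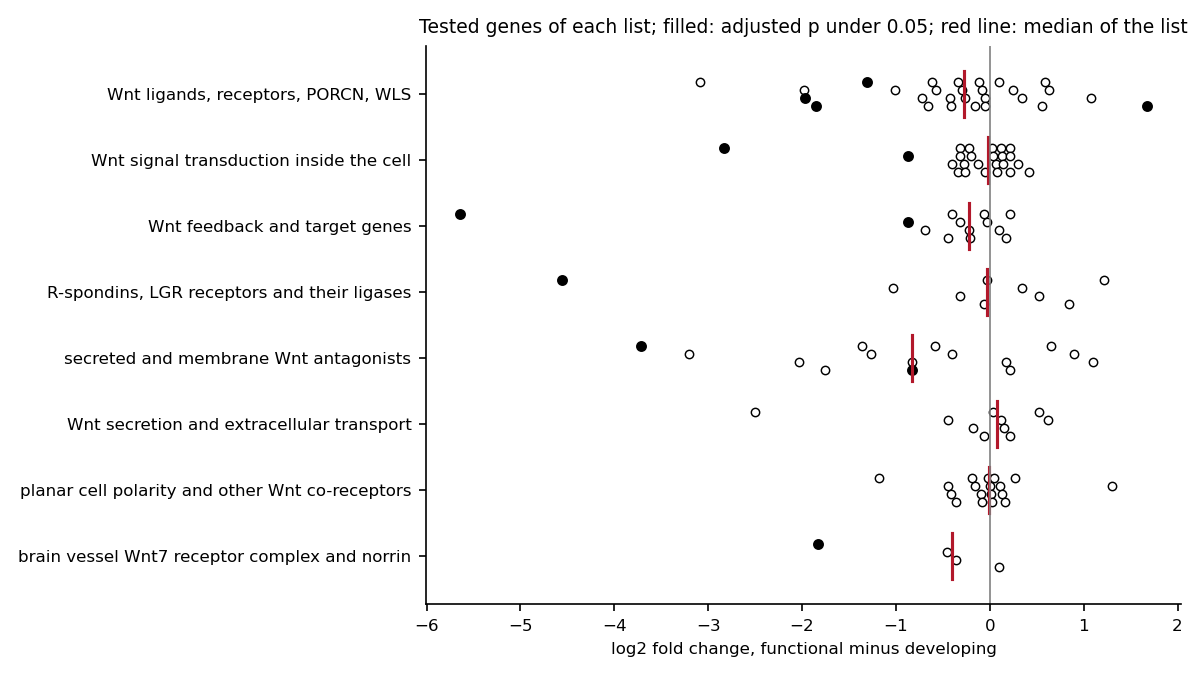
Log2 fold changes (functional minus developing teeth, x axis) of the tested Wnt ligands, receptors, PORCN and WLS and of the tested genes of 7 other pathway lists, 1 point a gene, with a red line at each list's median and filled points at an adjusted p under 0.05. The antagonists have the lowest median (-0.83), and FZD4 at 1.67 is the only filled point to the right of 0.

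Markers of other cells differed between the groups beside these genes. Among all genes tested, 0.8% rose and 2.01% fell in edgeR's test. At an unadjusted p under 0.05, 9.53% were higher and 12.8% lower, and the groups did not overlap in 15%. Of 7 tested proliferation markers 4 fell, and their summed level was between 29.7 and 57.7 CPM in functional and between 73.8 and 217 CPM in developing libraries. Of 9 tested macrophage markers 4 rose, with MARCO at 0 in every library (135.5 to 388 and 58.0 to 90.4 CPM summed). Of 8 odontoclast markers 0 passed edgeR's test, with 6 higher at an unadjusted p under 0.05 (344 to 1793 and 110.5 to 288 CPM summed). The highest functional sums of both lists, 388 and 1793 CPM, stood in functional replicate 4, the male sample. The next highest functional sums were 171 and 635 CPM. Of 10 tested markers of odontoblasts and mineralizing mesenchyme, 1 rose (BGLAP), 1 fell (ALPL) and 6 were higher at an unadjusted p under 0.05. Their sum, most of it type I collagen, was between 434307 and 474353 CPM in functional and between 41583 and 208273 CPM in developing libraries. Of the 6 tested ameloblast markers, all lower in every functional library, 1 passed. The part of these cells in the differences of FZD4, WNT7A, FZD1, FZD10 and NDP was not tested.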

How the data were processed

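The authors deposited 1 table of estimated counts per gene, not normalized, with a column for each of 8 libraries. Per the submitters' processing notes it was made with kallisto. Its version, index, annotation and strand setting, and the genome build, are not stated in the sources at hand. Per the labels' protocols, a stranded mRNA kit was used with paired reads of 59 bases. Of the values, 34.2% were not exactly whole, and all were rounded. Of 22488 row names, 22407 matched a symbol in a RefSeq table of MPM_Emac_v1.0, and the 81 others (0.909% to 1.41% of counts per library) entered neither library sizes nor tests. All 35 members matched. Transcript lengths were not used here, so levels are not compared between genes, and no sequence table was used.

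filterByExpr of edgeR 4.0.16 (R 4.3.3) left 15491 genes. After TMM scaling (factors 0.752 to 0.853 in functional and 1.10 to 1.39 in developing libraries), a quasi-likelihood fit in edgeR with tissue as its only term compared 4 functional with 4 developing libraries, with Benjamini-Hochberg adjustment over all genes and a threshold of 0.05. Standard errors are the log2 fold change over the square root of F. CPM use TMM-scaled library sizes. DESeq2 1.42.0 and limma-voom (limma 3.58.1) were alternatives, beside other scalings, filters, a replicate block, a covariate for sex, female libraries alone and each library left out. The scripts were tested on simulated data.

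Deviations from the group means correlated at 0.159 to 0.678 between same-numbered libraries, over 0.1 in all 4 pairs. Only 4 of 8 libraries correlated best with their own number. No pairing is stated in the labels, so the main fit left the replicate number out and the block was an alternative. Calls that the block ended are listed below. Libraries correlated at 0.858 to 0.969 within and 0.83 to 0.955 between groups. Values in every library are given for members that passed, whose groups did not overlap or that had the 8 smallest p-values, and other lists are named by the genes that passed or had the 2 smallest p-values. Members and lists were chosen with earlier results of these data known. Genes named outside this rule (CTNNB1, AXIN2, FRZB, TSPAN12, VWF, BGLAP, ALPL) were chosen after their values were seen.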

Additional observations from a re-analysis of the deposited data

Results flagged for a closer look

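Among 56 groups of 4 libraries (28 genes in both tissues), 3 held a library whose gap to the next, as a share of the group's range, passed Dixon's critical value, which chance passes in about 1 of 20 groups. WNT4 stood at 47.6 CPM in developing replicate 3, while the other developing libraries lay between 21.6 and 23.6 CPM. FZD2 stood at 43.9 CPM in functional replicate 4, beside 33.6 to 34.9 CPM in the other functional libraries. WLS stood at 177 CPM in developing replicate 4, beside 109 to 118 CPM in the other developing libraries.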

How the results depend on the processing

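Over all genes, 124 were higher and 312 lower. The counts were 721 and 959 with DESeq2, 76 and 143 with limma-voom, 69 and 151 with the replicate block, and 1 and 2 in female libraries alone. They ran from 2 to 184 and from 5 to 457 when a library was left out. With the covariate for sex 246 were higher, and on total counts 7453 were lower, where only 1.99% of calls were higher (28.4% in the main fit). Of the 28 members, 1 was higher and 3 lower. DESeq2 called 2 and 7. With limma-voom and with the block 1 each was lower, beside 0.923% and 0.975% of all genes, and FZD4 stayed higher in both (adjusted p = 0.0246 and 0.0378). Total counts gave 17 lower, where 48.1% of all genes were lower. Female libraries alone gave 0 and 0, and leaving out a library gave 0 to 2 and 0 to 4. Among the 28 members and the 7 pathway genes that passed, the block ended the calls of FZD1, FZD10, CCDC88C, TCF7, SP5, RSPO4, SOST and NDP and changed no other. On total counts the log2 fold change turned negative for FZD7 (-0.52), WNT11 (-0.38), WNT4 (-0.0557), WNT5A (-0.22) and WNT5B (-0.0012), where all genes shift by -0.59. In female libraries that of RYK was 0.0199. Summing all counts of paralogs with an uncertain split of reads, an alternative chosen after seeing the data, gave -0.55 for FZD1, FZD2 and FZD7 together and -0.10 for FZD5 with FZD8. Leaving out a library gave ranges across 0 for FZD7 (-0.0188 to 0.24), PORCN (-0.12 to 0.0758), RYK (-0.18 to 0.0113), WNT10A (-0.31 to 0.0492), WNT3 (-0.56 to 0.10), WNT6 (-0.38 to 0.21) and WNT9A (-0.30 to 0.11); the cause was not tested. Of 668 alternative values for members and the pathway genes that passed, 532 kept direction and side of the threshold. WNT3, WNT2B, FZD3 and FZD10 had under 100 counts in every library.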
